A study of Homo sapiens with 10 samples.

Results

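The effect of BEND2 sequence on gene expression was measured in a human embryonic kidney line by setting the 4 libraries that carried BEND2 sequence against the 4 that did not. These are 8 of the 10 libraries of the study, and 18127 genes of the 58216 in the count table had enough reads to be tested. The first arm held the unfused BEND2 line (genotype BEND2 knockin) and the MN1-BEND2 fusion line (MN1-BEND2 knockin), with 2 libraries each. The second arm held the control line (CTRL, genotype WT) and the unfused MN1 line (MN1 knockin), again with 2 libraries each. The main effect is the mean of the first pair of groups minus the mean of the second on the log2 scale, with each group weighted equally. It is also the average of 2 simple effects that share no library: BEND2 minus CTRL, in the background without MN1 sequence, and MN1-BEND2 minus MN1, in the background with it.

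All lines are TREx293, a HEK293 derivative that expresses the tetracycline repressor and holds a recombination (FRT) site, so that a cDNA placed there is transcribed when doxycycline is given. The cDNAs carried a triple HA tag, the lines were selected with Blasticidin and Hygromycin, and doxycycline was the inducer for the construct lines. The sources used here do not say whether CTRL cells received doxycycline or an empty vector, which residues of MN1 and BEND2 the constructs hold, or whether replicates were grown as separate cultures. The p-values therefore measure the spread between these libraries, which may be technical. The fusion is 1 protein, so the background with MN1 compares MN1 joined to BEND2 with MN1 alone and not cells holding both unfused proteins. The remaining 2 libraries, of MN1-CXXC5 cells, entered no comparison, but took part in the filter, the scaling and the estimate of spread.

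BEND2 is a chromatin protein with BEN domains, a fold found in several DNA-binding transcriptional regulators, and in mice it is required in meiotic germ cells. MN1 is a transcriptional coregulator with long disordered stretches. Fusions that join MN1 to BEND2 recur in astroblastoma, a glial brain tumour, which gives the contrast its interest: it asks what BEND2 sequence does by itself, what it does when joined to MN1, and how far both are the same.

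Libraries held 15914424 to 26799613 counts, and levels are given as CPM, a gene's count per 1000000 counts of its library after TMM scaling. All 8 marker genes of the HEK293 line were detected in every library, at a summed 878 to 1468 CPM. CFAP126 of ciliated cells and the salivary genes HTN3, PRB1, PRB3, PRB4 and AMY1A were at 0 counts in every library. Other markers on the lists were detected. In the 8 libraries compared, the astrocyte and ependymal markers, CFAP126 included, summed to 185.5 to 237.1 CPM. The neuron markers summed to 49.4 to 71.5 CPM and the fibroblast markers to 9.06 to 23.8 CPM. One set of markers stood apart. The 37 salivary gland and squamous epithelium markers summed to 112.6 CPM in CTRL replicate 1 and 104.1 CPM in MN1 replicate 1, against 2.60 to 5.29 CPM in the other 6 libraries, so that both high libraries lie in the arm without BEND2 sequence. Of the 14 tested markers of that list, 11 were called lower in the main effect, 0 in BEND2 minus CTRL and 2 in MN1-BEND2 minus MN1. The 10 blood markers, one of which (LYZ) is on both lists, reached 9.32 and 7.47 CPM in the same libraries and 1.07 to 5.66 CPM in the others. The counts of called, agreeing and opposite genes and of list members were also made without both libraries, and are given so where a printed count of at least 5 moved by over 1.5 times. Whether these transcripts have a part in any result was not tested further.

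The BEND2 gene (chrX:18162931-18220883, GRCh38) behaved as the labels state. It had 390 and 399 CPM in BEND2 libraries, 394 and 407 CPM in MN1-BEND2 libraries, 0 and 0.171 CPM (4 counts) in CTRL and 0 and 0.321 CPM (6 counts) in MN1. The 4 libraries with BEND2 sequence thus lay between 390 and 407 CPM, with little difference between the unfused and the fused form. Reads from the construct and from the endogenous gene are added together. The MN1 gene was at 328 and 325 CPM in MN1 cells and 291 and 291 CPM in MN1-BEND2 cells, and at 3.81 to 5.39 CPM in the libraries without MN1 sequence. Its main BEND2 effect was 0.13 on the log2 scale (SE 0.0471, edgeR adjusted p = 0.138), so that MN1 transcript did not pass the test between the arms. Without MN1 sequence, the low MN1 level rose by 0.44 (edgeR adjusted p = 0.0271), a call lost under 7 alternatives, with adjusted p-values of up to 0.294 without BEND2 replicate 1. In the background with MN1, MN1 fell by 0.17 (edgeR adjusted p = 0.000475), and the cells compared there differ slightly in MN1 transcript as well as in BEND2 sequence. CXXC5, which has no construct in these 4 groups, had 13.6 and 13.4 CPM in CTRL, 12.9 and 12.4 CPM in BEND2, 8.36 and 9.10 CPM in MN1 and 22.9 and 21.9 CPM in MN1-BEND2 cells, a rise of 1.36 with MN1 against a value of -0.09 without.

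Averaged over both backgrounds, 6995 of 18127 tested genes (38.6%) passed an edgeR adjusted p of 0.05, of which 3475 (19.2%) were higher and 3520 (19.4%) lower with BEND2 sequence. The split was 3962 and 2949 with library totals in place of TMM, and 2648 and 3737 with GC and length offsets. Most of these changes were small: 291 rises and 97 falls reached a log2 size of 1, and the median size over all tested genes was 0.152. The backgrounds contributed unequally. BEND2 minus CTRL called 2569 genes (14.2%, 1217 higher and 1352 lower), with 32 rises and 25 falls of at least 1. This count rests on 4 libraries and fell to between 1064 and 1350 when any 1 of them was left out, and to 1239 without both CTRL replicate 1 and MN1 replicate 1. MN1-BEND2 minus MN1 called 8398 genes (46.3%, 4201 higher and 4197 lower), with 913 rises and 396 falls of at least 1. The median absolute effect was 0.134 without MN1 and 0.260 with it. A test of the difference between the 2 effects called 6687 genes (36.9%).

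Agreement between backgrounds was limited. Of the 1678 genes called in both, 910 (5.02% of those tested) moved in the same direction, 379 higher and 531 lower, and 768 (4.24%) moved in opposite directions. The 910 genes were 35.4% of the calls without MN1 and 10.8% of the calls with MN1. Among the 6995 genes with a called main effect, 910 agreed, 246 moved in opposite directions, 4800 were called with MN1 only, 566 without MN1 only and 473 in neither background alone. A called difference between backgrounds accompanied 4201 of the 6995 main effects, so a called average often stood for unequal effects. In 1480 genes (8.16%) the called main effect was accompanied by 4 libraries with BEND2 sequence that all lay above, or all below, the 4 without it. The split of the 910 between directions moved with the scaling, from 379 higher and 531 lower to 468 and 392 with library totals, and to 80 and 205 of 285 with DESeq2. Without CTRL replicate 1 and MN1 replicate 1 the agreeing genes numbered 391, of which 363 were among the 910, and the opposite genes 328, of which 306 were among the 768. Leaving out any 1 library of BEND2 or CTRL gave 368 to 474 agreeing and 329 to 440 opposite genes.

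**Figure D1:**
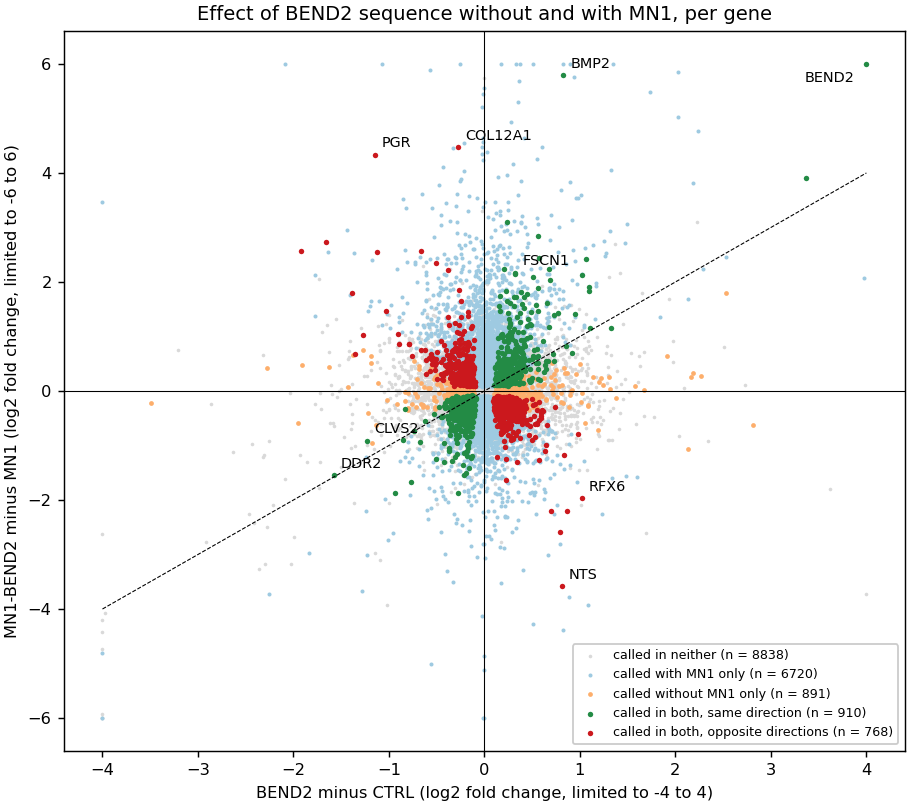
Each point is 1 tested gene, with BEND2 minus CTRL on the horizontal axis (log2 fold change) and MN1-BEND2 minus MN1 on the vertical axis (log2 fold change), coloured by the background in which it was called; the dashed line marks equal effects and points beyond the axis limits, such as BEND2, are drawn at the edge. The cloud is taller than it is wide, and the 910 genes called in the same direction (green) are matched by 768 called in opposite directions (red).

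Across all 18127 tested genes the 2 effects had a Pearson r of 0.17 and a Spearman rho of 0.03, and 51.9% of genes had the same sign in both. The points share the scaling factors and the estimate of spread, and genes are not independent replicates. Without BEND2 itself r was 0.15. Leaving out also the genes at least 4 times higher in replicate 1 of CTRL and of MN1 brought r to 0.05 (18098 genes), and restricting these to at least 5 CPM in the highest group gave 0.08 (12211 genes).

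DDR2, a receptor tyrosine kinase that binds fibrillar collagen (chr1:162631373-162787400), had the most even effect of the 24 named agreeing genes. Its levels were 53 and 57.7 CPM in CTRL and 18.9 and 18.0 CPM in BEND2 cells, and 23.2 and 23.3 CPM in MN1 and 8.83 and 7.27 CPM in MN1-BEND2 cells. Each group was clear of its partner, as the rule for named genes requires, and each line with MN1 sequence lay below its counterpart without it. DDR2 fell by 1.58 on the log2 scale without MN1 (SE 0.0669, edgeR adjusted p = 3.7e-07) and by 1.55 with MN1 (SE 0.0869, edgeR adjusted p = 4.31e-08). The difference between the effects was 0.03 (SE 0.114, edgeR adjusted p = 0.869). CLVS2, which encodes clavesin 2, a lipid-binding protein of clathrin-coated vesicles in neurons (chr6:122995971-123072927), was the other gene of this kind. It had 5.31 and 5.22 CPM in CTRL, 2.38 and 2.06 CPM in BEND2, 7.02 and 7.87 CPM in MN1 and 3.38 and 4.47 CPM in MN1-BEND2 cells. CLVS2 fell by 1.23 (SE 0.165) and by 0.91 (SE 0.15), and the effects differed by 0.31 (SE 0.224, edgeR adjusted p = 0.309).

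Promoter sequence is shown for DDR2 and CLVS2, whose falls were near equal, and for TPPP, a gene that rose in both backgrounds, because these 3 span the range of CpG content among the named genes. Each sequence is the 250 bases before the RefSeq start (GRCh38.p14), 5′ to 3′ on the gene's strand, and capitals mark every CG dinucleotide, which reads the same on both strands. DDR2 is at chr1:162630613-162630862 on the plus strand, CLVS2 at chr6:122995985-122996234 on the plus strand and TPPP at chr5:693353-693602 on the minus strand.
DDR2 promoter: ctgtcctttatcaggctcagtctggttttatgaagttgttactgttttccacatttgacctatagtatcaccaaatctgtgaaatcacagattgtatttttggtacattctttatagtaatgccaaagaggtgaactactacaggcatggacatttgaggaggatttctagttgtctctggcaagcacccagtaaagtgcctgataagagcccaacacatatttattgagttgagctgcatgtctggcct
CLVS2 promoter: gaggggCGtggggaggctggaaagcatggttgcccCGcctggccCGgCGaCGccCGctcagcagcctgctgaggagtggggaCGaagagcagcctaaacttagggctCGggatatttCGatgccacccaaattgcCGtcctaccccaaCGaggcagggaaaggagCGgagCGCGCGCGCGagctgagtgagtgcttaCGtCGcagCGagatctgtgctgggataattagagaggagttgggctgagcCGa
TPPP promoter: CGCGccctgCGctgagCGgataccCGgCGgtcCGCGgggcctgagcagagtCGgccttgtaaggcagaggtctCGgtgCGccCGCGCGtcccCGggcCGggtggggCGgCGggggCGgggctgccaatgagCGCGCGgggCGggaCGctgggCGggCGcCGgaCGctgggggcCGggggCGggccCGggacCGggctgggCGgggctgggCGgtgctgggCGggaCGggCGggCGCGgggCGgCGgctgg
The DDR2 window holds 0 CG, whereas 99.1% of the 10919 tested protein-coding genes matched to a RefSeq promoter hold at least 1. CLVS2 holds 21, the median over these promoters, and TPPP holds 41, more than 97.2% of them. The median was 26 CG for the 292 matched genes called higher in both backgrounds and 21 for the 431 called lower in both. GC content over the whole gene was not even between these sets either, as described below, and the RefSeq start of DDR2 lies before the start of the GENCODE gene model used for the counts' positions. The CLVS2 window, in contrast, lies inside the GENCODE gene model whose positions are printed above.

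Among the genes that fell in both backgrounds, the effect was usually larger with MN1. SEC31A, a coat subunit of vesicles leaving the endoplasmic reticulum (chr4:82818661-82901166), had 132 and 128 CPM in CTRL against 107 and 105 CPM in BEND2, and 127 and 125 CPM in MN1 against 65.8 and 64.3 CPM in MN1-BEND2 cells. It fell by 0.29 without MN1 (edgeR adjusted p = 0.000355) and by 0.96 with it (edgeR adjusted p = 9.66e-10). CKAP2L, a mitotic spindle protein (chr2:112736607-112764677), went from 41.8 and 42.0 CPM to 32.4 and 32.3 CPM without MN1, and from 37.0 and 39.2 CPM to 16.6 and 18.9 CPM with it. It fell by 0.37 (edgeR adjusted p = 0.00137) and by 1.09 (edgeR adjusted p = 3.73e-08). In both genes the 2 libraries of each group lay close together and the fusion line was lowest of the 4 groups. The other 8 named falls were TSHZ2 and FOXP2, transcription factors, PCLO, a scaffold of the presynaptic active zone, GUCY1A2, a guanylate cyclase subunit, KITLG, the ligand of the receptor KIT, MBNL3, a splicing regulator, HSD17B11, a dehydrogenase of lipid droplets, and BCAP29, an endoplasmic reticulum membrane protein. Their main effects lay between -0.81 (TSHZ2) and -0.64 (MBNL3). With MN1 they fell by 1.09 (MBNL3) to 1.41 (GUCY1A2), and without MN1 by 0.13 (KITLG) to 0.37 (HSD17B11).

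Of the rises, FSCN1 (fascin, an actin-bundling protein, chr7:5592823-5606655) was measured at 55.2 and 54.5 CPM in CTRL and 69.2 and 67.8 CPM in BEND2 cells, and at 38.0 and 36.4 CPM in MN1 and 169 and 166 CPM in MN1-BEND2 cells. It rose by 0.32 without MN1 (SE 0.0365, edgeR adjusted p = 0.000368) and by 2.17 with it (SE 0.0366, edgeR adjusted p = 2.67e-12). The group order was MN1, CTRL, BEND2, MN1-BEND2, with no overlap between neighbours. SH2D5, an adaptor protein with an SH2 domain (chr1:20719732-20732837), had 7.34 and 6.50 CPM in CTRL, 10.2 and 10.4 CPM in BEND2, 8.30 and 9.10 CPM in MN1 and 46.0 and 48.5 CPM in MN1-BEND2 cells. It rose by 0.58 (edgeR adjusted p = 0.00214) and by 2.44 (edgeR adjusted p = 4.07e-10). BMP2, a bone morphogenetic protein ligand (chr20:6767664-6780280), had the next largest main effect after BEND2 itself among the named rises, 3.31 (SE 0.163). Its levels were 1.04 and 0.684 CPM in CTRL, 1.72 and 1.19 CPM in BEND2, 0.669 and 0.589 CPM in MN1 and 35.3 and 35.3 CPM in MN1-BEND2 cells, so nearly all of the effect came from the fusion line. BMP2 rose by 5.80 with MN1 (edgeR adjusted p = 3.71e-10), and the value without MN1 was 0.83 (edgeR adjusted p = 0.0442).

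The 8 other named rises were the WNT pathway receptor KREMEN2, the sodium channel beta subunit SCN4B, the huntingtin partner HAP1, the tubulin-binding protein TPPP, the proton pump subunit ATP6V1C2, the clathrin adaptor HIP1R, the mitochondrial fission protein MTFP1 and TGFA, a ligand of the EGF receptor. Their main effects lay between 1.12 (TGFA) and 1.71 (KREMEN2). With MN1 they rose by 1.61 (MTFP1) to 3.09 (SCN4B), and without MN1 the values were 0.20 (HIP1R) to 0.68 (HAP1). HIP1R had 25.8 and 26.3 CPM in CTRL, 29.1 and 31.3 CPM in BEND2, 28.0 and 27.4 CPM in MN1, and 131 and 129 CPM in MN1-BEND2 cells. Over all 910 agreeing genes, 651 had the larger effect with MN1. The difference was called for 315 of them, and in 294 of these it was the effect with MN1 that was larger. Effects were larger with MN1 over all tested genes too, with a median absolute value of 0.260 against 0.134 without. For the agreeing genes these medians were 0.308 and 0.211, so the larger effect with MN1 is not particular to them. Changes of at least 1 in both backgrounds were seen in 9 genes.

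Whether a named gene counted as agreeing turned on the effect without MN1, which was the smaller one in most of them. For all 24 named genes the main effect and the effect with MN1 stayed called under each of 16 other ways of processing. The effect without MN1 was called under every alternative that gave it an adjusted p for 7 of them: BEND2, SH2D5, FSCN1, DDR2, CLVS2, CKAP2L and SEC31A. For SH2D5 and CLVS2 these were 15, since DESeq2 gave none. For the other 17 it was lost under 3 to 14 alternatives. The losses were 14 of 16 for KITLG, 12 of 16 for GUCY1A2, 10 of 15 for TPPP and 9 of 16 for SCN4B. They were 8 of 16 for BCAP29 and MBNL3, and 8 of 15 for BMP2 and MTFP1. The fewest, 3, were those of ATP6V1C2, PCLO and HSD17B11. The highest adjusted p was 0.54 for BMP2 and 0.187 for MTFP1 (both without BEND2 replicate 1), 0.196 for TSHZ2 (without BEND2 replicate 1), 0.296 for SCN4B and 0.223 for HAP1 (without CTRL replicate 1), and 0.117 for TGFA and 0.174 for PCLO (without CTRL replicate 2). It was 0.22 for KREMEN2, 0.265 for TPPP, 0.493 for HIP1R and 0.358 for BCAP29 with GC and length offsets, 0.312 for GUCY1A2 and 0.236 for FOXP2 in DESeq2, and 0.0628 for ATP6V1C2, 0.0886 for HSD17B11, 0.25 for KITLG and 0.14 for MBNL3 without both CTRL replicate 1 and MN1 replicate 1. The direction was the same in every case.

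**Figure D2:**
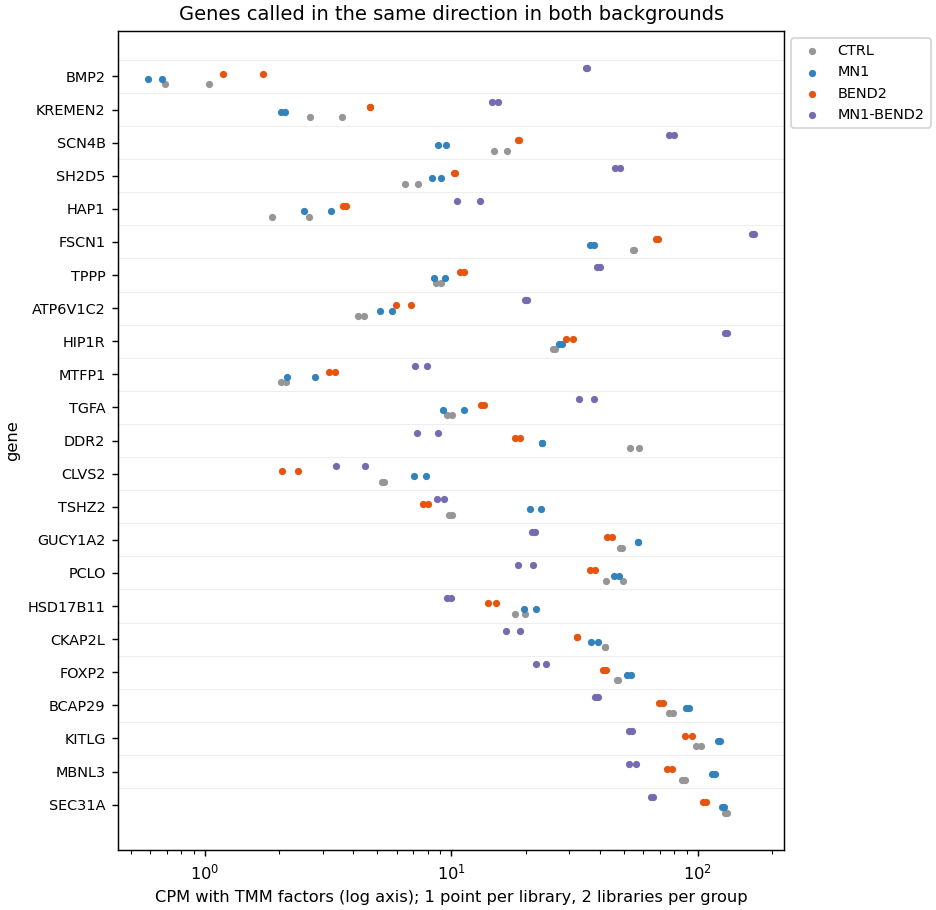
Level of each named agreeing gene other than BEND2 in every library (CPM with TMM factors, log axis; 1 point per library, 2 libraries per group). From BMP2 to TGFA the MN1-BEND2 points lie to the right of all others, and from DDR2 to SEC31A the lines with BEND2 sequence lie to the left of their own background, most evenly for DDR2 and CLVS2. The genes were chosen for having no overlap between libraries with and without BEND2 sequence.

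Large main rises were mostly called in the background with MN1 only. The effect there is MN1-BEND2 minus MN1, so a shift of the MN1 line from CTRL enters it too. Of the 291 genes with a main rise of at least 1, 246 were called with MN1 only and 31 agreed, and in 103 the arms did not overlap. Of the 97 falls of at least 1 the arms did not overlap in 17. Among the 97, 12 (12.4%) were genes at least 4 times higher in replicate 1 than in replicate 2 of both CTRL and MN1. Those replicate 1 libraries are the ones with salivary and squamous transcripts. Such genes were 28 of all 18127 tested (0.154%). By the same rule on overlap and level, 514 genes were called with MN1 only and with a called difference, 241 higher and 273 lower. ONECUT3, a homeobox transcription factor (chr19:1752373-1780988), had 1.77 and 2.14 CPM in CTRL, 2.16 and 3.06 CPM in BEND2, 0.111 and 0.214 CPM in MN1 and 15.1 and 15.9 CPM in MN1-BEND2 cells. Both lines with BEND2 sequence lay above both lines without it, but BEND2 and CTRL differed by 0.37 (SE 0.197, edgeR adjusted p = 0.287), against 6.51 (SE 0.261, edgeR adjusted p = 2.46e-09) with MN1. The other 4 rises of this kind were the hyaluronan-degrading protein CEMIP, the sphingosine kinase SPHK1, the netrin family member NTNG2 and the hormone receptor GIPR. Their values were 3.00 (GIPR) to 3.93 (CEMIP) with MN1 and 0.15 (CEMIP) to 0.43 (GIPR) without. The falls were smaller: EYA1, a developmental transcription cofactor, fell by 1.83 with MN1, and the thiolase ACAT1, the sialyltransferase ST6GALNAC5, the coagulation inhibitor TFPI and the kinase LRRK2 fell by 1.23 (LRRK2) to 1.38 (ACAT1).

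The reverse pattern, a call without MN1 only, was seen in 891 genes (4.92% of those tested), against 6720 (37.1%) called with MN1 only. A called main effect was present in 566 of the 891. The same rule also needs arms without overlap, and so leaves out genes such as SQLE, described below. By this rule 3 genes were called without MN1 only with a called difference, all of them falls. They were MGEA5, the enzyme that removes O-GlcNAc from proteins, EIF4EBP1, a repressor of translation initiation, and STAM2, an endosomal sorting protein. MGEA5 had 331 and 323 CPM in CTRL, 280 and 279 CPM in BEND2, 310 and 301 CPM in MN1 and 291 and 291 CPM in MN1-BEND2 cells. It fell by 0.23 without MN1 (SE 0.0317, edgeR adjusted p = 0.00122), and the value with MN1 was -0.07 (SE 0.0318, edgeR adjusted p = 0.0908). EIF4EBP1 fell by 0.24 and STAM2 by 0.30 without MN1, with values of -0.05 and -0.07 with MN1. With GC and length offsets EIF4EBP1 also fell with MN1, by 0.22 (edgeR adjusted p = 0.000317), and the pattern then no longer holds for it.

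Genes that moved in opposite directions had small main effects. This follows in large part from their choice, since the main effect is the average of 2 effects of opposite sign. The median absolute main effect over the 768 was 0.0542, against 0.269 over the agreeing genes and 0.152 over all tested genes. A main effect was called for 246 of the 768 (32%), beside 38.6% of all tested genes. The difference between backgrounds was called for all 768, as is nearly given by 2 called effects of opposite sign. With at least 5 CPM in the highest group and no overlap within either background there were 723 such genes, 338 higher and 385 lower with MN1. HIST1H2AC, a replication-dependent H2A gene (chr6:26124145-26139116), had 12.5 and 13.0 CPM in CTRL and 8.03 and 8.05 CPM in BEND2 cells, but 4.29 and 4.39 CPM in MN1 and 25.4 and 25.9 CPM in MN1-BEND2 cells. It fell by 0.67 (SE 0.08, edgeR adjusted p = 0.000462) without MN1 and rose by 2.56 (SE 0.0847, edgeR adjusted p = 5.39e-10) with it. COL12A1, a collagen chain (chr6:75084326-75206051), had 12.1 and 13.9 CPM in CTRL, 11 and 10.5 CPM in BEND2, 6.13 and 6.96 CPM in MN1 and 145 and 146 CPM in MN1-BEND2 cells. COL12A1 rose by 4.47 with MN1, while the value without MN1 was -0.28 (edgeR adjusted p = 0.0405). PGR, the progesterone receptor (chr11:101029624-101130524), had 1.87 and 1.37 CPM in CTRL, 0.660 and 0.811 CPM in BEND2, 0.334 and 0.482 CPM in MN1 and 8.72 and 8.09 CPM in MN1-BEND2 cells. Its effects were -1.15 and 4.34. The others in this sense were the synaptic adhesion gene SLITRK5, the H2B gene HIST2H2BE, the transcription factors CUX2 and NFIL3, and GDAP1L1, with values of -1.35 (GDAP1L1) to -0.27 (NFIL3) without MN1 and 0.67 (GDAP1L1) to 2.55 (SLITRK5) with it.

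In the other sense, NTS (the neuropeptide neurotensin, chr12:85874295-85882992) had 4.01 and 3.81 CPM in CTRL and 6.93 and 6.74 CPM in BEND2 cells, and 49.5 and 47.9 CPM in MN1 and 3.59 and 4.43 CPM in MN1-BEND2 cells. The MN1 line stood far above the other 3 groups. NTS rose by 0.81 without MN1 (SE 0.126, edgeR adjusted p = 0.00196) and fell by 3.59 with it (SE 0.106, edgeR adjusted p = 2.68e-10). AMBN, which encodes the enamel matrix protein ameloblastin (chr4:70592256-70607288), had 5.52 and 5.26 CPM in CTRL, 9.60 and 8.99 CPM in BEND2, 20.6 and 21.3 CPM in MN1 and 3.59 and 3.37 CPM in MN1-BEND2 cells. It rose by 0.79 (edgeR adjusted p = 0.00086) and fell by 2.59 (edgeR adjusted p = 2.6e-09). RFX6, a transcription factor of endocrine pancreas, rose by 1.02 and fell by 1.97, and TENM1, a teneurin adhesion protein, rose by 0.35 and fell by 1.30. The remaining genes were IGSF10, the protease gene PRSS23, the chemokine gene CXCL8 and the adhesion gene FLRT3, with values of 0.22 (PRSS23) to 0.87 (IGSF10) without MN1 and falls of 1.11 (FLRT3) to 2.20 (IGSF10) with it.

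The difference between backgrounds stayed called under all 16 alternatives for these 16 genes, and the effect with MN1 for 15. GDAP1L1 was the exception: its call with MN1 was lost under 10 of the 16, with an adjusted p of up to 0.262 (in DESeq2). The effect without MN1 stayed called under 15 alternatives for HIST1H2AC, GDAP1L1, NTS, AMBN, RFX6 and TENM1, and DESeq2 gave these 6 no adjusted p for it. It was lost at least once for the other 10, with adjusted p-values of up to 0.128 for PGR, 0.178 for CXCL8, 0.0743 for HIST2H2BE and 0.0752 for CUX2 without BEND2 replicate 1, 0.0574 for SLITRK5 without BEND2 replicate 2 and 0.421 for COL12A1 without CTRL replicate 2. They were up to 0.0918 for IGSF10 and 0.101 for FLRT3 without both CTRL replicate 1 and MN1 replicate 1, and 0.18 for NFIL3 and 0.269 for PRSS23 in DESeq2. For these 10 the opposite direction without MN1 is thus less firm than the difference between backgrounds. Their losses ranged from 1 alternative (HIST2H2BE and CUX2) to 7 (COL12A1) and 8 (PRSS23) of 16.

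**Figure D3:**
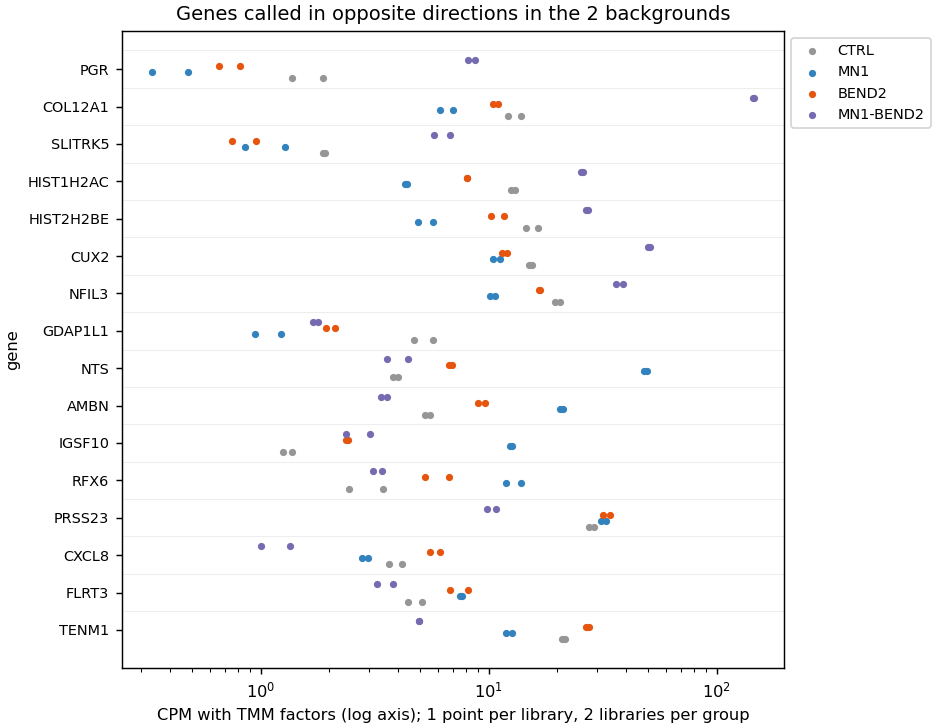
Level of the 16 named genes called in opposite directions in every library (CPM with TMM factors, log axis; 1 point per library, 2 libraries per group). From PGR to GDAP1L1 the BEND2 points lie left of CTRL while the MN1-BEND2 points lie right of MN1, and from NTS to TENM1 both relations are reversed. The genes were chosen for this separation within each background.

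The promoters of NTS and CUX2 are shown because they stand near the ends of the CpG range among the genes with opposite effects. The conventions are those given above. NTS is at chr12:85874045-85874294 and CUX2 at chr12:111033915-111034164, both on the plus strand.
NTS promoter: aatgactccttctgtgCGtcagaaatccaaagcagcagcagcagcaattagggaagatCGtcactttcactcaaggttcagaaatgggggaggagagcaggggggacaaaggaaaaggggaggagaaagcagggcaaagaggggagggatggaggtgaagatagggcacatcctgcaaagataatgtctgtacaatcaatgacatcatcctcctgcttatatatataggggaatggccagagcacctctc
CUX2 promoter: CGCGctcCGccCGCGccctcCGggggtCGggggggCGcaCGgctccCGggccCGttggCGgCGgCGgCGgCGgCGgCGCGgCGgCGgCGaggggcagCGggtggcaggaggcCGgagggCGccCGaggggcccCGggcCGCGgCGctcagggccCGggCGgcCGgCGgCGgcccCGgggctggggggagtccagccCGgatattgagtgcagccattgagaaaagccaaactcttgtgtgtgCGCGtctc
NTS holds 2 CG, more than 2.55% of the matched promoters, and CUX2 holds 39, more than 95.8%. Over the whole sets, genes lower with MN1 had a median of 23 CG (323 promoters) and genes higher with MN1 a median of 20 (296 promoters). NTS and CUX2 thus lie on the sides away from the medians of their own sets. No match or count here says anything about binding of BEND2.

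Fold changes followed the GC content of the gene in both backgrounds. Tested genes were split into 5 equal groups by GC content, and the median of BEND2 minus CTRL went from -0.07 in the group of lowest GC to 0.13 in that of highest GC, while that of MN1-BEND2 minus MN1 went from -0.10 to 0.12. Between the 2 replicates of a group, no GC group had a median difference above 0.0176. The genes called in both backgrounds followed the same order: 19 of those higher in both lay in the lowest group and 174 in the highest, and 259 of those lower in both lay in the lowest and 3 in the highest. Genes higher with MN1 and lower without it went the other way, from 105 in the lowest group to 20 in the highest. With offsets for GC content and length, 512 genes agreed, of which 379 were among the 910, and 592 were opposite, of which 431 were among the 768. The part of GC content in the agreement was not tested beyond this refit.

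Gene groups were then described with 28 lists, by the number of tested members called and the median effect, beside a median over all tested genes of 0.01 for the main effect and 0.00 in either background. The shares of all tested genes, given as background with the first list, are to be set beside the counts of every list. Signalling-responsive lists are given first. Of 19 immediate early genes, which respond to growth factor signalling within minutes, 14 were higher and 0 lower in the main effect (background 19.2% and 19.4%). Without MN1, 2 were higher and 2 lower (background 6.71% and 7.46%), and with MN1 14 were higher and 0 lower (background 23.2% and 23.2%). The medians were 0.70, 0.15 and 1.30. MYC, the growth-promoting transcription factor, had 106 and 104 CPM in CTRL, 122 and 123 CPM in BEND2, 91.5 and 92.1 CPM in MN1 and 328 and 325 CPM in MN1-BEND2 cells. It was an agreeing gene, with rises of 0.23 (edgeR adjusted p = 0.00103) and 1.83 (edgeR adjusted p = 2.67e-12). The AP-1 subunit JUNB rose by 2.51 with MN1, and its value without MN1 was 0.20 (edgeR adjusted p = 0.105). KLF10, a zinc finger repressor induced by TGF-beta, went in opposite directions, falling by 0.25 without MN1 and rising by 1.65 with it. The fall was not called without BEND2 replicate 1 (edgeR adjusted p = 0.0834), in DESeq2 (adjusted p = 0.0778) or without both CTRL replicate 1 and MN1 replicate 1 (edgeR adjusted p = 0.0531).

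The MAPK feedback targets, genes that report and restrain ERK signalling, showed 12 of 17 higher and 3 lower in the main effect, 3 and 0 without MN1, and 12 and 3 with MN1, with medians of 0.54, 0.04 and 0.98. The transcription factor ETV5 had 25.9 and 25.8 CPM in CTRL, 24.7 and 24.6 CPM in BEND2, 13.5 and 12 CPM in MN1 and 63.8 and 61.6 CPM in MN1-BEND2 cells. It rose by 2.30 with MN1, and its value without MN1 was -0.06 (edgeR adjusted p = 0.547). The ERK phosphatase DUSP4 likewise rose by 2.60 with MN1 against -0.12 without. Of 20 Notch pathway genes 15 were higher and 0 lower in the main effect, 3 and 1 without MN1 and 13 and 1 with it. Their median GC content was 61.1%, and with GC and length offsets the main counts were 9 and 3. The Notch ligand DLL4 rose by 2.62 and the target HEY2 by 2.19 with MN1, with values of 0.19 and -0.16 without. Among 20 TGF-beta and BMP response genes 12 were higher and 2 lower in the main effect, 2 and 2 without MN1 and 13 and 2 with it. ID1 and ID2, inhibitors of differentiation that respond to BMP, rose by 2.14 and 1.44 with MN1, with values of 0.10 and -0.06 without. Of 26 WNT targets and modulators 11 were higher and 3 lower, 4 and 0 without MN1 and 10 and 5 with it (10 and 3 without both CTRL replicate 1 and MN1 replicate 1). NKD1, a feedback inhibitor of WNT signalling, agreed, rising by 0.41 and 0.94, though the former was not called without BEND2 replicate 1 (edgeR adjusted p = 0.102), without CTRL replicate 1 (edgeR adjusted p = 0.0784), without both CTRL replicate 1 and MN1 replicate 1 (edgeR adjusted p = 0.0993) or with GC and length offsets (edgeR adjusted p = 0.0866). NOTUM, another, rose by 3.54 with MN1 against -0.08 without.

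**Figure D4:**
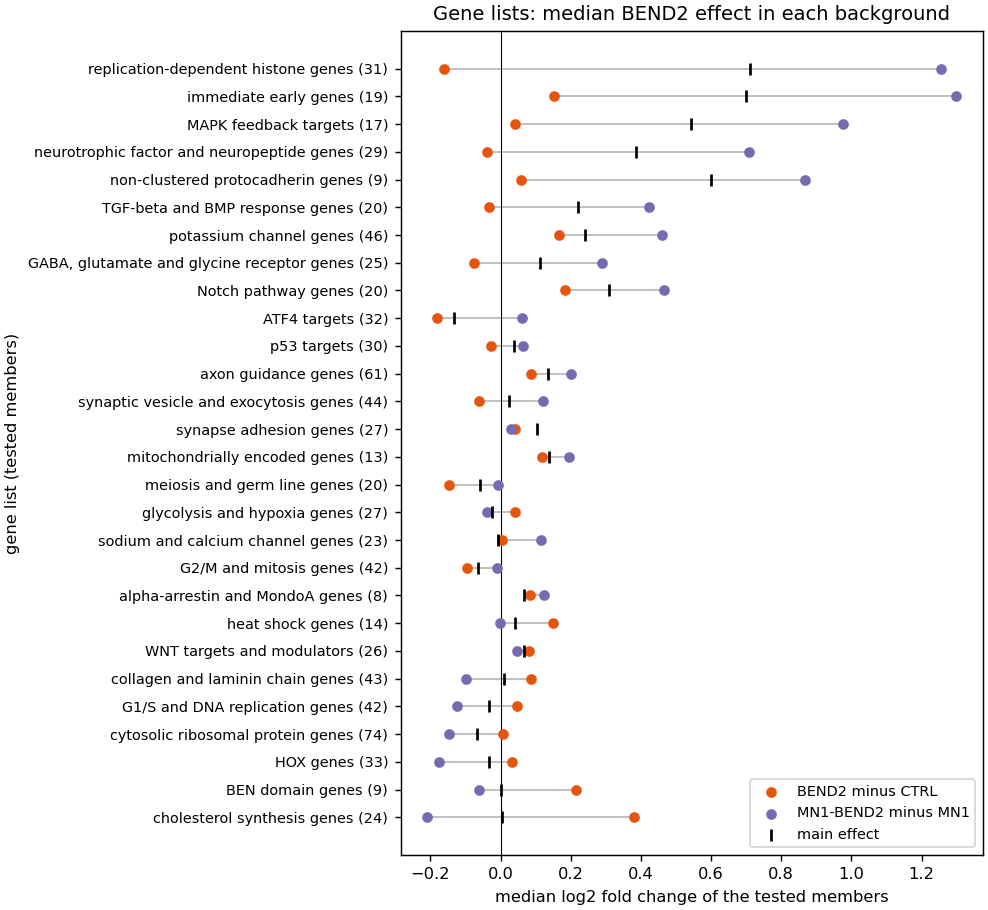
Median log2 fold change of the tested members of each of 28 gene lists (number of tested members in brackets) in BEND2 minus CTRL, in MN1-BEND2 minus MN1 and in the main effect. Histone genes, immediate early genes and MAPK feedback targets have medians of 0.98 to 1.30 with MN1 and -0.16 to 0.15 without, and cholesterol synthesis genes lie at -0.21 with MN1 and 0.38 without.

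Replication-dependent histone genes had calls in 1 direction in the main effect, where 19.2% of all tested genes were higher and 19.4% lower. These shares were 6.71% and 7.46% without MN1, and 23.2% and 23.2% with it. Of 31 tested members 22 were higher and 0 lower in the main effect, 0 and 3 without MN1, and 23 and 0 with MN1, with medians of 0.71, -0.16 and 1.26. The linker histone gene HIST1H1C had 15.8 and 17.0 CPM in CTRL, 19.4 and 18.5 CPM in BEND2, 13.2 and 14.5 CPM in MN1 and 59.2 and 59.1 CPM in MN1-BEND2 cells, a rise of 2.10 with MN1 and a value of 0.21 without (edgeR adjusted p = 0.0648). Histone genes are near-identical copies, so reads may be shared among them. The S-phase list went otherwise: of 42 G1/S and DNA replication genes 8 were higher and 17 lower in the main effect, 7 and 3 without MN1 and 7 and 23 with it. Without both CTRL replicate 1 and MN1 replicate 1 these counts were 5 and 17, 3 and 2, and 6 and 20. RRM2, the ribonucleotide reductase subunit, was higher in both backgrounds, by 0.25 and 0.90. Of 42 G2/M and mitosis genes 5 were higher and 19 lower in the main effect (3 and 16 without both CTRL replicate 1 and MN1 replicate 1), 2 and 12 without MN1 and 10 and 18 with it. The cytokinesis regulator ECT2 agreed, with falls of 0.29 (edgeR adjusted p = 0.000349) and 0.43 (edgeR adjusted p = 6.67e-07).

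The cholesterol list held many calls without MN1, where 6.71% of all tested genes were higher and 7.46% lower. With MN1 these shares were 23.2% and 23.2%. Of 24 cholesterol synthesis genes 15 were higher and 1 lower without MN1, and 2 were higher and 15 lower with it. The main effect had 8 higher and 7 lower with a median of 0.00, and the difference was called lower with MN1 for 21 of the 24. Without CTRL replicate 1 and MN1 replicate 1 the counts were 12 and 1, and 2 and 13. SQLE, the squalene epoxidase, had 82.9 and 80.9 CPM in CTRL and 119 and 124 CPM in BEND2 cells, against 140 and 148 CPM in MN1 and 144 and 141 CPM in MN1-BEND2 cells. It rose by 0.57 without MN1 (SE 0.0397, edgeR adjusted p = 1.36e-05), and the value with MN1 was -0.01 (edgeR adjusted p = 0.8). Both lines with MN1 sequence thus lay above the BEND2 cells. INSIG1, a sensor that retains the sterol regulator in the endoplasmic reticulum, and HMGCS1, an early enzyme, agreed: they rose by 0.58 and 0.50 without MN1 and by 0.21 and 0.24 with it. ACAT2, which makes acetoacetyl-CoA, fell by 1.02 with MN1 and had a value of 0.08 without.

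Of 32 ATF4 targets, genes of the amino acid response, 0 were higher and 17 lower without MN1. With MN1 12 were higher and 11 lower, and the main effect had 6 higher and 18 lower. Of all tested genes, 14.2% were called without MN1, 46.3% with MN1 and 38.6% in the main effect. The list held 7 agreeing and 7 opposite genes. SLC7A11, the cystine transporter, had 187 and 181 CPM in CTRL, 139 and 136 CPM in BEND2, 122 and 119 CPM in MN1 and 63.3 and 61.5 CPM in MN1-BEND2 cells. It fell by 0.42 (SE 0.0328, edgeR adjusted p = 3.52e-05) and by 0.95 (SE 0.0363, edgeR adjusted p = 1.72e-09). PSAT1, an enzyme of serine synthesis, fell almost equally, by 0.35 and 0.41, and the effects differed by -0.06 (SE 0.0438, edgeR adjusted p = 0.348). The tRNA exporter XPOT fell by 0.26 and 0.68. ATF3, a stress-induced transcription factor, rose by 1.27 with MN1 and had a value of -0.14 without (edgeR adjusted p = 0.075). Among 8 alpha-arrestin and MondoA genes 3 were higher and 2 lower, and ARRDC3 fell evenly, by 0.46 and 0.48, with a difference of -0.03 (SE 0.122, edgeR adjusted p = 0.899).

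Neural gene lists are set beside 46.3% of all tested genes called with MN1 and 14.2% without. Of 46 potassium channel genes 22 were higher and 4 lower in the main effect, 3 and 1 without MN1 and 22 and 7 with it. The leak channel gene KCNK13 had 1.51 and 1.15 CPM in CTRL, 1.43 and 1.75 CPM in BEND2, 1.89 and 1.45 CPM in MN1 and 26.3 and 26.1 CPM in MN1-BEND2 cells, a rise of 3.97 with MN1 against a value of 0.24 without. KCNQ5, which encodes an M-type channel, fell in both, by 0.30 and 0.89 (without both CTRL replicate 1 and MN1 replicate 1 the former had an edgeR adjusted p of 0.0584, and in DESeq2 an adjusted p of 0.0534). Of 23 sodium and calcium channel genes 6 were higher and 6 lower in the main effect, with GC and length offsets 2 and 9, and without both CTRL replicate 1 and MN1 replicate 1 3 and 5. SCN9A, a gene for a channel of pain-sensing neurons, fell by 1.97 with MN1 and had a value of 0.18 without. Of 25 GABA, glutamate and glycine receptor genes 6 were higher and 3 lower, 1 and 0 without MN1 and 9 and 4 with it. GABBR2, a subunit of the metabotropic GABA receptor, rose by 3.31 with MN1 against -0.17 without. GABRA2, a subunit of the GABA-gated chloride channel, had 401 counts in MN1-BEND2 cells against 2 in MN1 cells, a depth-scaled ratio of 169 (exact binomial 95% interval 46.4 to 1398), and 4 counts in BEND2 against 2 in CTRL cells, a ratio of 1.97 (0.282 to 21.7).

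Adhesion and guidance genes moved in both directions. Of 61 axon guidance genes 32 were higher and 13 lower in the main effect, 1 and 3 without MN1 and 28 and 14 with it. With GC and length offsets the main counts were 16 and 16, and in DESeq2 17 and 12. The repellent SEMA3C had 43.4 and 43.4 CPM in CTRL, 46.8 and 46.7 CPM in BEND2, 80.7 and 77.0 CPM in MN1 and 11.9 and 14.8 CPM in MN1-BEND2 cells, a fall of 2.54 with MN1 against a value of 0.11 without. The ephrin EFNB2 rose by 1.49 and the receptor ROBO3 by 2.83 with MN1, with values of -0.06 and 0.07 without. Of 9 non-clustered protocadherin genes 4 were higher and 3 lower, and 1 and 0 without MN1. PCDH10 had 0.385 to 0.811 CPM in CTRL and BEND2 cells, 0.669 and 1.34 CPM in MN1 and 24.3 and 26.1 CPM in MN1-BEND2 cells. PCDH9 fell by 1.89 with MN1 and had a value of 0.13 without (edgeR adjusted p = 0.0574). Of 27 synapse adhesion genes 11 were higher and 8 lower in the main effect, 2 and 3 without MN1 and 13 and 9 with it, and none agreed (0 genes). Of 44 synaptic vesicle genes 13 were higher and 12 lower, and with GC and length offsets 8 and 15. The vesicle protein SYP agreed, with falls of 0.36 and 0.71, the former not called without BEND2 replicate 1 (edgeR adjusted p = 0.0581). Of 29 neurotrophic factor and neuropeptide genes 14 were higher and 4 lower, 2 and 1 without MN1 and 15 and 4 with it. The neurotrophin receptor NGFR had 3.75 and 2.69 CPM in CTRL, 3.04 and 3.56 CPM in BEND2, 1.28 and 0.910 CPM in MN1 and 22.6 and 23.3 CPM in MN1-BEND2 cells, a rise of 4.38 with MN1 against 0.03 without.

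BEN domain and germ line genes are lists close to BEND2 itself. Beside them, 38.6% of all tested genes were called in the main effect, 14.2% without MN1 and 46.3% with it. Of 9 tested BEN domain genes, BEND2 included, 2 were higher and 0 lower in the main effect, 3 and 0 without MN1 and 2 and 3 with it. BANP, a BEN domain protein that binds CpG-rich promoters, had a main rise of 0.25 (not called in DESeq2, adjusted p = 0.0711), with values of 0.10 (edgeR adjusted p = 0.507) and 0.40 (edgeR adjusted p = 0.00294). Of 44 meiosis and germ line genes 20 were tested, of which 3 were higher and 4 lower in the main effect, 1 and 1 without MN1 and 4 and 4 with it. MND1, a partner of meiotic recombinases, had 26.0 and 27.0 CPM in CTRL, 21.7 and 22.0 CPM in BEND2, 19.3 and 20.7 CPM in MN1 and 5.50 and 5.44 CPM in MN1-BEND2 cells. It fell by 1.87 with MN1, and the value without MN1 was -0.28 (edgeR adjusted p = 0.011, and up to 0.09 when 1 library was left out). STAG3, a meiotic cohesin subunit, rose by 1.17 with MN1 and had a value of 0.31 without.

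Among housekeeping groups, cytosolic ribosomal protein genes were mostly called lower in MN1-BEND2 than in MN1 cells. Of all tested genes, 19.2% were higher and 19.4% lower in the main effect. These shares were 6.71% and 7.46% without MN1, and 23.2% and 23.2% with it. Of 74 tested, 2 were higher and 34 lower in the main effect, 7 and 2 without MN1 (3 and 0 without both CTRL replicate 1 and MN1 replicate 1) and 2 and 46 with it, and the median effect with MN1 was -0.15. These genes have many pseudogene copies that may share reads. Of 33 HOX genes 7 were higher and 12 lower in the main effect, 3 and 3 without MN1 and 9 and 15 with it, the last being 5 and 15 without both CTRL replicate 1 and MN1 replicate 1. HOXA9, which specifies posterior position, fell by 0.73 with MN1 and had a value of 0.03 without. Of 14 heat shock genes 4 were higher and 3 lower, and the chaperone HSPA8 fell by 0.89 with MN1 against 0.07 without. The 13 mitochondrially encoded genes had 5 higher and 0 lower in the main effect, and 2 and 1 without CTRL replicate 1 and MN1 replicate 1. Of 43 collagen and laminin chain genes 10 were higher and 12 lower. COL14A1 had 102 and 105 CPM in CTRL, 106 and 105 CPM in BEND2, 190 and 189 CPM in MN1 and 55.1 and 55.1 CPM in MN1-BEND2 cells, a fall of 1.78 with MN1 against 0.03 without. Of 30 p53 targets 10 were higher and 7 lower in the main effect, 2 and 9 without MN1 and 13 and 7 with it. Without both CTRL replicate 1 and MN1 replicate 1 the counts without MN1 were 0 and 5. The cell cycle inhibitor GADD45A went from a fall of 0.24 without MN1 (edgeR adjusted p = 0.0687 without BEND2 replicate 1) to a rise of 0.95 with it. Of 27 glycolysis and hypoxia genes 10 were higher and 7 lower. The kinase HK2 rose by 1.01 and GAPDH fell by 0.67 with MN1, with values of 0.08 and 0.05 without.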

How the data were processed

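RNA was sequenced from 10 libraries of TREx293 cells in 5 groups of 2, of which 8 form the 2 arms compared. The authors deposited 1 table of raw, whole-number counts for each gene. Per the labels' protocols, Trizol was used for RNA, the VAHTS Universal V6 kit for libraries, and a DNBSEQ-T7 for paired reads of 150 bases. The tools named per the submitters' processing notes are featureCounts 2.0.0, SAMtools 1.0.1 and HISAT2, with the build hg38 (GRCh38). How reads were counted, by which annotation and whether by strand, is not given in the sources used here, so overlapping, antisense and near-identical genes are uncertain. All columns were matched to samples by name (0 left unmatched). Lines of 45 identifiers present in duplicate were summed, and 27 date-like symbols were replaced by the GENCODE v29 name, which also supplied positions.

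The test was the quasi-likelihood F-test of edgeR 4.0.16 (R 4.3.3) after TMM scaling and filterByExpr by group, in 1 fit of all 10 libraries, with 5 residual degrees of freedom. P-values were adjusted by Benjamini-Hochberg over 18127 genes and called under 0.05. SE denotes the standard error of each log2 value. Totals were 15914424 to 26799613 counts, and 3 counts equal 0.112 to 0.189 CPM. Intervals cover counting error only. The fit was tested on simulated data. Alternatives were DESeq2 1.42.0, library totals, other filters, 8 libraries only, GC and length offsets, a replicate block, and leaving out libraries.

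Named genes come from rules: MN1, BEND2 and CXXC5; the 12 largest agreeing rises and falls; 5 each way called in 1 background only; 8 each way called in opposite directions; and up to 4 members per list with the smallest adjusted p, of which some are printed. The agreeing, 1-background and opposite sets need at least 5 CPM and no overlap between the arms (within backgrounds for opposite genes), and leave out pseudogenes and non-coding style names. The comparison, the 28 gene lists (977 members) and 6 marker lists (90 members) were chosen with earlier results of these data known.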

Additional observations from a re-analysis of the deposited data

Results flagged for a closer look

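The values here are differences between the BEND2 effect with MN1 and that without it, on the log2 scale, and were marked because the test of that difference (edgeR adjusted p under 0.05) called them. It called 6687 of 18127 genes. The difference was -0.60 for MN1 and 1.45 for CXXC5, which has no construct in the 4 groups compared. Among the named genes that rose in both backgrounds it was 4.97 for BMP2, 2.29 for KREMEN2, 2.86 for SCN4B, 1.86 for SH2D5, 1.36 for HAP1, 1.85 for FSCN1, 1.82 for TPPP, 1.32 for ATP6V1C2, 2.03 for HIP1R, 0.96 for MTFP1 and 1.33 for TGFA. Among those that fell in both it was -0.95 for TSHZ2, -1.25 for GUCY1A2, -0.91 for PCLO, -0.73 for HSD17B11, -0.72 for CKAP2L, -1.01 for FOXP2, -1.09 for BCAP29, -1.06 for KITLG, -0.91 for MBNL3 and -0.67 for SEC31A. Of the 12 rises and 12 falls named in that way, BEND2, DDR2 and CLVS2 had no called difference.

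For genes called with MN1 only it was 6.14 for ONECUT3, 3.79 for CEMIP, 3.22 for SPHK1, 2.82 for NTNG2 and 2.57 for GIPR, and -1.62 for EYA1, -1.28 for ACAT1, -1.15 for ST6GALNAC5, -1.09 for TFPI and -1.08 for LRRK2. For those called without MN1 only it was 0.23 for STAM2, 0.15 for MGEA5 and 0.19 for EIF4EBP1. For genes with opposite effects it was 5.49 for PGR, 4.75 for COL12A1, 3.67 for SLITRK5, 3.23 for HIST1H2AC, 2.86 for HIST2H2BE, 2.61 for CUX2, 2.11 for NFIL3 and 2.02 for GDAP1L1, and -4.40 for NTS, -3.38 for AMBN, -3.07 for IGSF10, -2.99 for RFX6, -1.85 for PRSS23, -1.84 for CXCL8, -1.74 for FLRT3 and -1.65 for TENM1.

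Among signalling genes of the lists it was 1.60 for MYC, 2.31 for JUNB, 1.89 for KLF10, 2.36 for ETV5, 2.72 for DUSP4, 2.04 for ID1, 1.51 for ID2, 0.53 for NKD1, 3.63 for NOTUM, 2.35 for HEY2 and 2.43 for DLL4. Among channel, receptor and adhesion genes it was 3.73 for KCNK13, -0.59 for KCNQ5, -2.15 for SCN9A, 3.48 for GABBR2, 6.34 for GABRA2 (a fitted value that rests on few counts), -0.35 for SYP, -2.02 for PCDH9, 4.22 for PCDH10, 1.56 for EFNB2, -2.65 for SEMA3C, 2.76 for ROBO3, 4.35 for NGFR and -1.81 for COL14A1. Among metabolic and stress genes it was -0.53 for SLC7A11, -0.42 for XPOT, 1.40 for ATF3, -1.10 for ACAT2, -0.26 for HMGCS1, -0.38 for INSIG1, -0.58 for SQLE, 1.19 for GADD45A, 0.93 for HK2, -0.72 for GAPDH and -0.97 for HSPA8. Among cell cycle, chromatin and germ line genes it was 1.89 for HIST1H1C, 0.65 for RRM2, -0.14 for ECT2, -0.76 for HOXA9, -1.59 for MND1 and 0.85 for STAG3.

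Outside the comparisons, BEND2 transcript had a mean of 0.494 CPM in the 2 MN1-CXXC5 libraries, which carry no BEND2 construct.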

How the results depend on the processing

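With DESeq2 the main effect called 4097 genes, BEND2 minus CTRL 861, MN1-BEND2 minus MN1 5343 and the difference 3786, with 285 agreeing and 205 opposite genes. GC and length offsets gave 1613 calls without MN1 and 512 agreeing genes. Without both CTRL replicate 1 and MN1 replicate 1, 1239 genes were called without MN1, 391 agreed and 328 were opposite. Leaving out 1 library at a time gave 5854 to 6184 main calls, 1064 to 2444 without MN1, 6891 to 8389 with MN1, 5607 to 5897 for the difference, 368 to 781 agreeing and 329 to 634 opposite genes; a lone library is then assumed to vary like the other groups. The lowest counts without MN1, of agreement and of opposition came without BEND2 replicate 1, the deepest library. Of the named genes' values under these alternatives 4497 kept their side of the threshold, 196 were no longer called and 11 became called in the same direction. In 1 more the sign changed and a call was made: SQLE with MN1 was 0.11 with GC and length offsets (edgeR adjusted p = 0.0295). Changes of sign in values not called in either fit are among the 4497. Of list counts with at least 5 members, 27 of 83 moved by over 1.5 times with DESeq2, 18 of 88 with GC and length offsets and 13 of 83 without both replicate 1 libraries. A replicate block gave 4159 calls without MN1, 1607 agreeing and 1292 opposite genes. With it MGEA5 was called with MN1 too (-0.07, edgeR adjusted p = 0.0217). The labels do not say that a number marks a shared batch, and the numbers were not taken as pairs. Same-numbered deviations correlated at 0.07 to 0.29, the highest value being that of CTRL with MN1. Without the genes at least 4 times higher in replicate 1 of CTRL and of MN1 they correlated at 0.05 to 0.16. Whether the numbers mark a shared batch was not tested. For all of these shifts the cause was not tested, beyond the smaller number of libraries where 1 or 2 were left out. Depth limits genes near 3 counts, and 2 libraries per group limit all the tests.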

Other observations

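The 9 genes with a called change of at least 1 in both backgrounds were looked up after their values were seen. Apart from BEND2 and DDR2 they were rises of genes with group means under 5 CPM, outside the rule for named genes. KCNA1, a voltage-gated potassium channel gene, had means of 0.555 CPM in CTRL, 0.628 in MN1, 1.19 in BEND2 and 2.77 in MN1-BEND2 cells. ST8SIA2, the enzyme that makes polysialic acid on neural cell adhesion molecules, had 0.74, 0.633, 1.60 and 3.38 CPM in the same order. ACTL8, a testis-enriched actin-like gene, had 0.555, 1.04, 1.21 and 3.93 CPM, and FAM43B had 0.645, 0.897, 1.36 and 3.24 CPM. NTRK3, the receptor of neurotrophin 3, had 0.0214 and 0.0546 CPM in CTRL and MN1, below the level of 3 counts, and 0.303 and 0.898 CPM in BEND2 and MN1-BEND2 cells. The other 2 were the non-coding RNA gene AC103706.1 and the pseudogene UBE2Q2P2. In KCNA1, ACTL8, FAM43B and NTRK3 the difference between the backgrounds was not called, and in ST8SIA2 it was 1.35 (edgeR adjusted p = 0.034). Their calls were not followed through the alternatives.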
